A study of Mus musculus with 28 samples.

Results

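The RNA-binding proteins Elavl2, Elavl3, Elavl4, Nova1, Nova2, Rbfox1, Rbfox3, Srrm3 and Srrm4, all best known from neurons, were examined together with Rest, a repressor of neuronal genes. They were chosen by name, with earlier results of these data known. They are 10 of the 19421 genes in the table, and all 10 passed the filter on low values that left 16837 genes to test. The data are RNA-seq of cells from mouse embryonic stem cell (ESC) lines, grown as embryoid bodies (EBs), in which doxycycline (Dox) switches on Atoh1, Gfi1 and Pou4f3 alone or in any combination. The comparisons ask how each combination of the 3 transcription factors, which together lead ESCs towards inner ear hair cells (HCs), changed the levels of these genes.

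The 7 lines were iAtoh1, iGfi1 and iPou4f3 with 1 factor, iG+A (Gfi1 and Atoh1), iG+P (Gfi1 and Pou4f3) and iP+A (Pou4f3 and Atoh1) with a pair, and iGPA with all 3. Every line derives from the A2loxCre parent and carries its factors and the mVenus reporter in 1 inducible cassette. Dox libraries came from mVenus+ cells sorted at day 6 after 48 h with 2 µg/ml Dox. No Dox libraries came from whole, unsorted EBs of the same line and day (in Dox against No Dox, the effects of Dox and sorting cannot be told apart). Each of the 14 groups held 2 libraries, taken from different clones according to the series record. Values are normalized counts, which the authors scaled with DESeq2 so that libraries can be compared. They sum to 36.8 to 40.4 M per library, and the estimated depth was 30.3 to 48.0 M reads. Differences are log2 fold changes on log2(normalized count + 1), fitted with limma over all 14 groups, and the threshold for a call required both an adjusted p below 0.05 and a change of 1.5 or more, up or down, on the log2 scale.

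Atoh1 stood at 12816 to 21242 normalized counts in Dox libraries of lines with its cassette and at 14.3 to 32.5 in those without. For Gfi1 these ranges were 8119 to 12487 and 49.7 to 113, and for Pou4f3 4694 to 19883 and 27.7 to 101, as the labels state. The level of Pou4f3 with Dox was 4694 and 5381 in iPou4f3 and 10868 to 19883 in iG+P, iP+A and iGPA, so comparisons with iPou4f3 also compare unequal levels of Pou4f3. The untreated EBs expressed markers of several cell types: over 7 mesenchyme markers the summed level was 49845 to 163980 normalized counts, over 7 blood markers 65745 to 482610 and over 11 neuron markers 3660 to 5726. In such mixed samples, fewer cells of a type and less RNA per cell cannot be told apart.

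Proteins of the Elavl family (the Hu proteins) bind AU-rich stretches of mRNA and act on its stability and splicing. Nova1, Nova2 and the Rbfox proteins bind short motifs near alternative exons, and Srrm3 and Srrm4 promote the inclusion of microexons, very short exons used mainly in neurons. Rest binds a DNA element called RE1 and recruits corepressors to neuronal genes in other cells. Srrm4 also acts on the Rest transcript, where it promotes an alternative exon that shortens the protein, and mutation of Srrm4 in mice causes loss of HCs and deafness.

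Past the threshold were 30 of the 70 combinations of a gene and a line, 25 up and 5 down. In iAtoh1 cells 4 of the 10 genes rose and 0 fell, against 2.89% of all tested genes up and 2.52% down. In iGfi1 cells 0 rose and 1 fell, where 2.15% of all genes rose and 2.67% fell. In iPou4f3 cells 2 rose and 0 fell (all genes 1.47% and 0.606%). With Gfi1 and Atoh1 together, 5 rose and 2 fell (all genes 7.35% and 4.95%), and with Gfi1 and Pou4f3 2 rose and 1 fell (5.16% and 5.36%). The highest count of rises was in iP+A cells, with 7 up and 0 down (4.70% and 2.58%). In iGPA cells 5 rose and 1 fell (8.65% and 5.31%). The median log2 fold change of the 10 genes was 2.72 in iP+A, 1.5 in iGPA, 1.10 in iG+A, 0.85 in iAtoh1, 0.42 in iPou4f3, 0.34 in iG+P and −0.11 in iGfi1, where the median of all tested genes lay between −0.03 and 0.02. Elavl4 was past the threshold in 5 lines, Rbfox1 and Srrm3 and Rbfox3 in 4 each, Elavl3, Nova1, Nova2 and Srrm4 in 3 each, Elavl2 in 1 and Rest in 0.

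**Figure D1:**
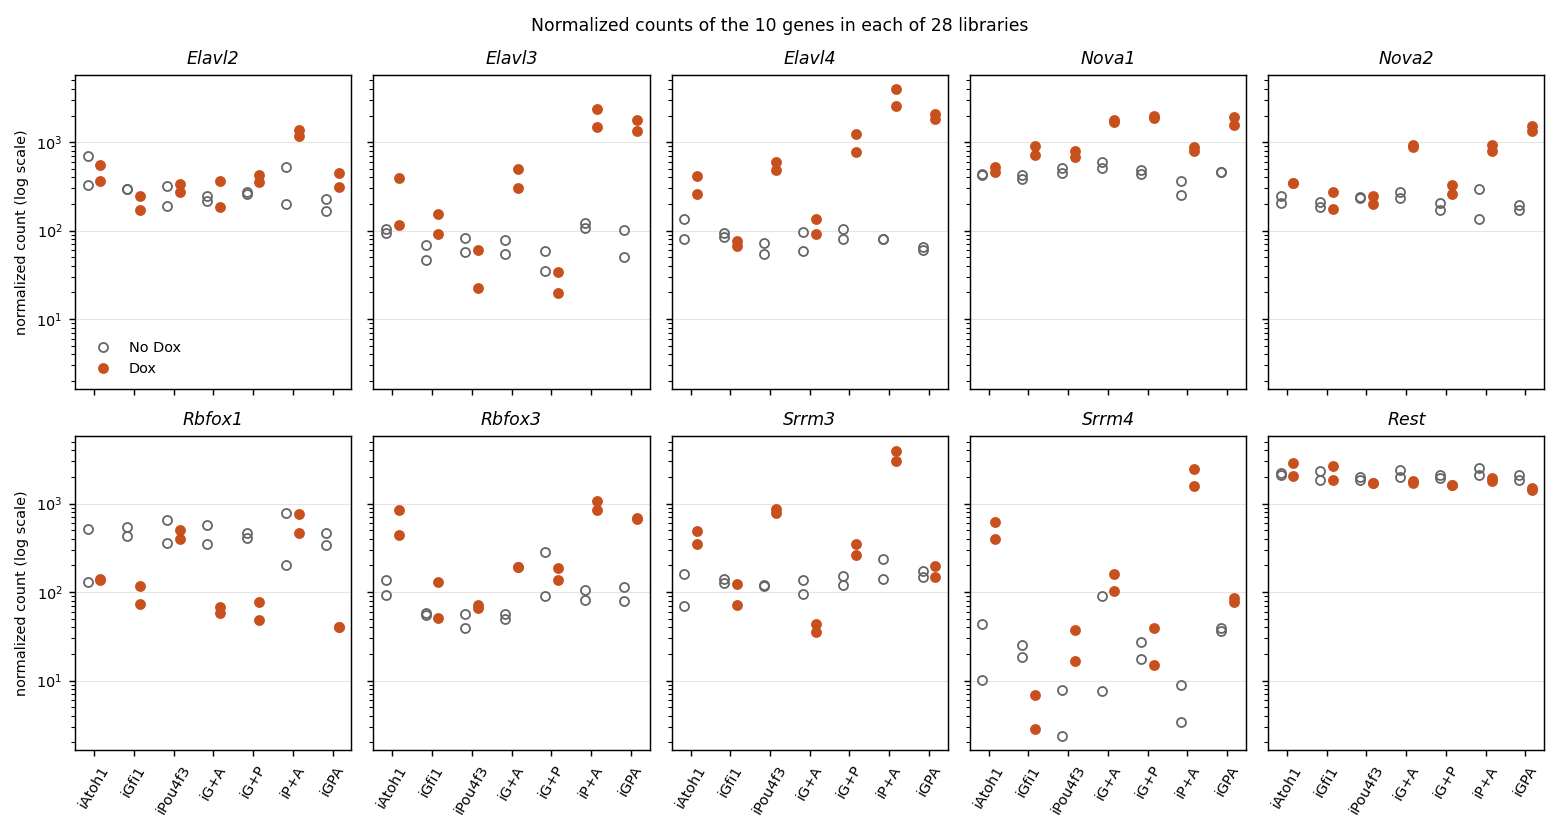
Normalized counts on a log axis of the 10 genes in all 28 libraries, with the 7 lines along each horizontal axis, open grey circles for the 2 No Dox libraries and filled circles for the 2 Dox libraries of a line. Rest stays between 1427 and 2887 throughout, whereas Srrm4 runs from 2.35 to 2439 and Rbfox1 lies lowest in the Dox libraries of iGPA.

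Rest was well expressed in every library and was past the threshold in none of the lines. Per kb of its longest annotated transcript, it was the most abundant of the 10 genes in all 7 untreated groups, for example with 310.8 ± 10.7 normalized counts per kb (SD, n = 2) in iAtoh1 and 282.5 ± 29.0 in iGPA. With Dox it was still first in iAtoh1, iGfi1, iPou4f3 and iG+A, but it ranked 3 in iG+P, 5 in iGPA and 6 in iP+A, below Elavl4 in each of them. In iG+P its 233.8 per kb was within the spread of Elavl4 (245.0 ± 79.4), the next above it. Counted over all annotated exons it ranked 2 in iG+A and iG+P and 4 in iGPA and iP+A. The level of Rest in iGPA cells was 1427 and 1487 normalized counts after Dox and 2122 and 1835 in untreated EBs, groups that did not overlap. This is a log2 fold change of −0.44 ± 0.16 (SE) with an adjusted p of 0.036, smaller than the fold threshold. In iP+A cells it had 1823 and 1955 with Dox against 2099 and 2530, in iG+A 1807 and 1706.5 against 2426 and 2002, and in iG+P 1631 and 1644 against 2102 and 1955, with log2 fold changes of −0.29, −0.33 and −0.31 and adjusted p of 0.218, 0.119 and 0.163. With the replicate block the adjusted p for iG+A and iG+P was 0.026 and 0.0398, at sizes that stay under the fold threshold. Over all alternatives the adjusted p ran up to 0.21 in iGPA, 0.501 in iG+A and 0.418 in iG+P. In iAtoh1 the 2 Dox libraries, 2887 and 2067, lay on either side of the untreated 2230 and 2124. None of the 10 differences between lines in the Dox effect on Rest passed the threshold, the farthest from 0 being −0.60 ± 0.23 (adjusted p 0.0749) for iGPA minus iAtoh1. The annotation has 1 gene on the same strand that overlaps Rest, so some reads may not be its own. These are counts per gene, so they hold no information on the alternative exon of Rest or on its protein.

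Since Rest acts through RE1, the genome of the authors' build (NCBIM37, the same assembly as mm9) was searched on both strands for the letters TTCAGCACC and GGACAGCGC with 2 bases between them, allowing 2 of the 18 letters to differ. There were 609 matches in the genome. A match lay within 10 kb of a start of 1.28% of 22380 protein-coding genes, of 16 of the 22 listed Rest target genes that could be placed, of 2 of the 10 genes (Elavl3 and Srrm4) of 3 of 10 other neuronal splicing regulators and of 0 of 15 broadly expressed or epithelial RNA-binding proteins. Nova2 and Rbfox3 held matches only further inside the gene. Of all protein-coding genes, 4.82% of the 2284 that span 100 to 650 kb and 0.751% of the 19979 shorter than 100 kb held one inside. The matches of these 4 genes are shown because they are the stretches of DNA that resemble the element Rest binds, with capitals at letters equal to the searched ones. A match is no evidence of binding, which was not measured here.
Elavl3, chr9:21858314-21858333, plus strand, outside the gene, at −1856 bases from its start (negative is upstream): TTCAGCACCacaGACAGCGg
Nova2, chr7:19536945-19536964, minus strand, intron: TTCAGCACCaaGGACAGCag
Rbfox3, chr11:118446311-118446330, minus strand, intron: TTCAGtACCatGGACAGCGg
Rbfox3, chr11:118446382-118446401, minus strand, intron: TTCAGCACCagGaACAGCGC
Rbfox3, chr11:118464619-118464638, plus strand, intron: aTCAGCACCatGGAgAGCGC
Srrm4, chr5:116968261-116968280, minus strand, intron: TTCAGCACCgcGGACAGtGg
Srrm4, chr5:116995931-116995950, plus strand, intron: TTCAGaACCatGGACAGCGC
Srrm4, chr5:117041505-117041524, minus strand, exon, 312 bases after the start: TTCAGCACttcGGACAGCGC
The other 6 genes, Elavl2, Elavl4, Nova1, Rbfox1, Srrm3 and Rest itself, had no such letters in the windows searched.

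Of 24 genes listed as known targets of Rest, 14 rose and 0 fell in iP+A cells and 10 rose and 1 fell in iGPA cells, and the median of the list was 1.77 and 1.40 on the log2 scale. Among all tested genes 4.70% rose and 2.58% fell in iP+A, and 8.65% rose and 5.31% fell in iGPA. In the other lines 7 rose and 1 fell in iG+A, 4 rose in iG+P, and 2 each rose in iAtoh1, iGfi1 and iPou4f3. Among all tested genes 7.35% rose and 4.95% fell in iG+A, and 5.16% rose in iG+P. In iAtoh1, iGfi1 and iPou4f3 2.89%, 2.15% and 1.47% of all tested genes rose. Syp, a protein of synaptic vesicles, had 1401 and 1342 normalized counts in iGPA cells with Dox against 65.5 and 44.2 without, a log2 fold change of 4.65 (adjusted p 1.1e-08). Calb1, a calcium buffer, stood at 47.1 and 46.4 against 1.75 and 0 (4.85, adjusted p 2.3e-05), too few counts without Dox for a ratio. Stmn3, a regulator of microtubules, had 80.8 and 75.7 against 6.12 and 3.93 (3.74, adjusted p 2.67e-04). Stmn2, Syp and Snap25 of this list are also neuron markers. Of the 11 neuron markers 9 rose and 0 fell in iP+A, and 7 rose and 1 (Gap43) fell in iGPA. The part of neurons in the counts of these 2 lines was not tested.

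Of 22 partners of Rest, such as corepressors and histone deacetylases, 1 rose in iGPA and in iG+A cells and 0 passed the threshold in the other lines. Among all tested genes 8.65% rose in iGPA and 7.35% in iG+A. In both it was Rcor2, a corepressor of the CoREST family. It had 16628 and 18027 normalized counts in iGPA cells with Dox against 4249 and 3559 without, a log2 fold change of 2.15 ± 0.16 (adjusted p 9.09e-09). In iG+A cells it rose by 2.19 on the log2 scale, and in iAtoh1 and iP+A cells its log2 fold changes of 1.47 and 1.41 lay just under the threshold. The summed level of the 22 partners was 134440 to 158880 with Dox and 127870 to 144660 without.

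**Figure D2:**
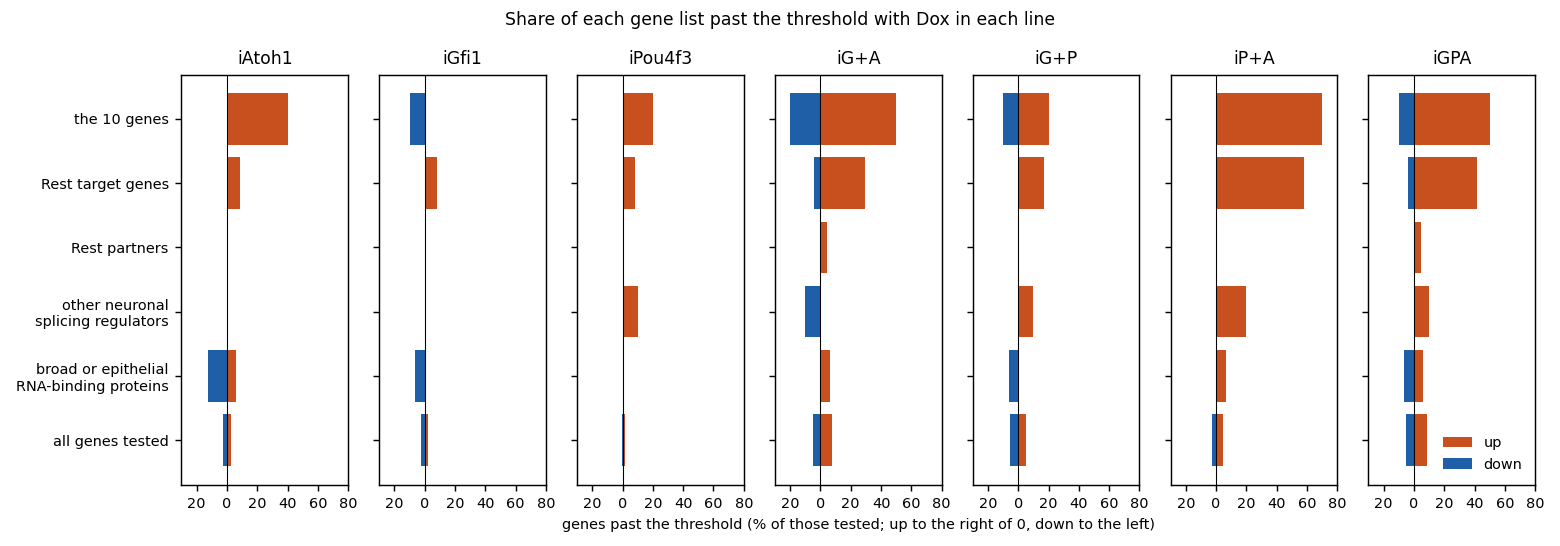
Share of each gene list past the threshold with Dox, in percent of the genes tested, 1 panel per line with rises to the right of 0 and falls to the left. The 10 genes and the 24 Rest target genes show their longest bars in iP+A (7 of 10 and 14 of 24), while the bars of the 22 Rest partners and of all tested genes stay short in every line.

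Among the Elavl genes, Elavl4 (HuD) changed most often. It lies on chromosome 4 at 109876327 to 110024514 (NCBIM37, minus strand). Without Dox it had 54.0 to 134 normalized counts in the 14 libraries. In iP+A cells with Dox it had 4010 and 2562 against 79.8 and 80.6, a 41.0-fold higher mean and a log2 fold change of 5.30 ± 0.32 (SE, adjusted p 1.21e-09). Values in iGPA cells were 2080 and 1819 against 65.9 and 60.0, a log2 fold change of 4.93 (adjusted p 1.11e-09). Both groups of Dox libraries lay far above every untreated library. In iG+P cells the values were 783 and 1249 against 80.8 and 105 (3.41, adjusted p 2.07e-07), and in iPou4f3 cells 488 and 590 against 54.0 and 71.9 (3.09, adjusted p 6.82e-06). In iAtoh1 cells they were 418.4 and 256.3 against 134 and 81.0 (1.64, adjusted p 0.00119), and this call was lost without Dox replicate 1 (1.29) or No Dox replicate 2 (1.28) and with only the groups compared in the fit (adjusted p 0.0711). In iG+A the groups overlapped, with 136 and 92.7 against 59.2 and 97.7. In iGfi1 Elavl4 stood at 66.7 and 76.4 against 85.1 and 93.2, a log2 fold change of −0.32 (adjusted p 0.496). The 5 lines where it rose thus include all 4 that carry Pou4f3.

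The 3 comparisons that add Pou4f3 to a line all gave a higher Dox effect on Elavl4. It was higher in iP+A than in iAtoh1 by 3.66 ± 0.45 on the log2 scale (adjusted p 5.61e-05), in iG+P than in iGfi1 by 3.72 (adjusted p 6.1e-05), and in iGPA than in iG+A by 4.38 (adjusted p 1.21e-05). Between iGPA and iP+A the difference was −0.37 ± 0.45 (adjusted p 0.619), and between iG+P and iPou4f3 it was 0.32 ± 0.45 (adjusted p 0.687). Over all tested genes, the share past the threshold in these contrasts was 2.78% for iP+A minus iAtoh1, 1.85% for iG+P minus iGfi1, 2.20% for iGPA minus iG+A, 7.60% for iGPA minus iP+A and 7.63% for iG+P minus iPou4f3.

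Elavl3 (HuC), on chromosome 9 at 21819449 to 21856467 (minus strand), rose in 3 lines, all of which carry Atoh1 with a further factor. It had 2360 and 1480 normalized counts in iP+A cells with Dox against 108 and 120.5 without, a log2 fold change of 4.02 ± 0.54 (adjusted p 2.09e-05). The iGPA values were 1350 and 1795 against 100.5 and 50.1 (4.43, adjusted p 2.44e-06), and in iG+A cells 495 and 304 against 77.7 and 53.8 (2.57, adjusted p 9.13e-04). The Dox libraries of these 3 lines lay above all 14 untreated ones, whose highest value was 120.5. In iAtoh1 cells the 2 Dox libraries differed from each other, at 397 and 115 against 106 and 94.6, and the log2 fold change of 1.09 was not past the threshold (adjusted p 0.153), although without Dox replicate 2 it was 1.98 and past it. In the lines without Atoh1, iG+P had 34.3 and 19.5 against 34.7 and 58.1, iPou4f3 22.2 and 59.7 against 82.3 and 56.9, and iGfi1 90.9 and 153 against 46.9 and 68.0, none past the threshold. Adding Atoh1 to Pou4f3 raised the Dox effect by 4.91 ± 0.76 on the log2 scale (adjusted p 8.56e-04, with 1.61% of all genes past the threshold in iP+A minus iPou4f3). Adding it to Gfi1 and Pou4f3 raised it by 5.21 (adjusted p 1.69e-04, with 5.90% of all genes past the threshold in iGPA minus iG+P). Adding it to Gfi1 alone gave a difference of 1.52 that did not pass (adjusted p 0.146).

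By the threshold used, both Elavl3 and Elavl4 rose in iP+A and iGPA, Elavl4 but not Elavl3 in iAtoh1, iPou4f3 and iG+P, and Elavl3 but not Elavl4 in iG+A. The difference between the 2 genes within a line was not tested. Since members of 1 family could share reads, the 31-base words of each gene's transcripts were looked up in all other protein-coding genes. No word of Elavl2 or Elavl4 and 0.321% of those of Elavl3 occurred elsewhere, so the counts of the 3 are separable at that length. The RefSeq promoter of Elavl3 (GRCm38.p6, chr9:22052024-22052273, minus strand, the 250 bases before the start) is shown as one that holds an E-box, the element that factors of the class of Atoh1 bind. Binding was not measured here. Capitals mark the E-box letters CAGCTG.
Elavl3 promoter: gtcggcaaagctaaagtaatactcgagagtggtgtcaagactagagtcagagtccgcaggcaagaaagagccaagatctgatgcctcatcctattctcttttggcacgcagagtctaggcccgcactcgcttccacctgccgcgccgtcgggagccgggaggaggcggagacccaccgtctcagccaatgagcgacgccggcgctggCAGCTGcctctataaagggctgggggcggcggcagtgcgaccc
These letters occurred in 13.0% of 32851 promoters and in 5 of 18 promoters of 9 of the genes, those of Elavl3, Elavl4, Nova1 and Rbfox1, where 2 overlapping promoters of Elavl4 are counted. The promoters of Nova2 and Rbfox3, which also rose in iG+A, iP+A and iGPA, did not hold them. The letters AAATCAC, taken from the site that Gfi1 binds, were searched too and occurred in 2.75% of all promoters and in 0 of the 18. Shorter or variant forms of that site were not searched, so its absence from these promoters is not shown. The promoter of Rest was not in the table.

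Elavl2 (HuB, chromosome 4, 90917454 to 91066675, minus strand) rose in iP+A cells, where it had 1388 and 1170 normalized counts against 201 and 520, a log2 fold change of 1.98 ± 0.42 (adjusted p 0.002). This call was lost without No Dox replicate 1 of iP+A (1.29) and with only the groups compared in the fit (adjusted p 0.064). In the other lines its log2 fold changes ran from −0.52 to 0.95. In iGPA cells the values were 450 and 310 against 225 and 166, groups that did not overlap, with an adjusted p of 0.0733. The untreated libraries of Elavl2 spread more than those of Elavl4, from 166 to 694. Elavl1 (HuR), the member of the family that is expressed in most cells, had 6120 to 7106 normalized counts in the Dox libraries of all 7 lines, with log2 fold changes between −0.13 and 0.13.

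**Figure D3:**
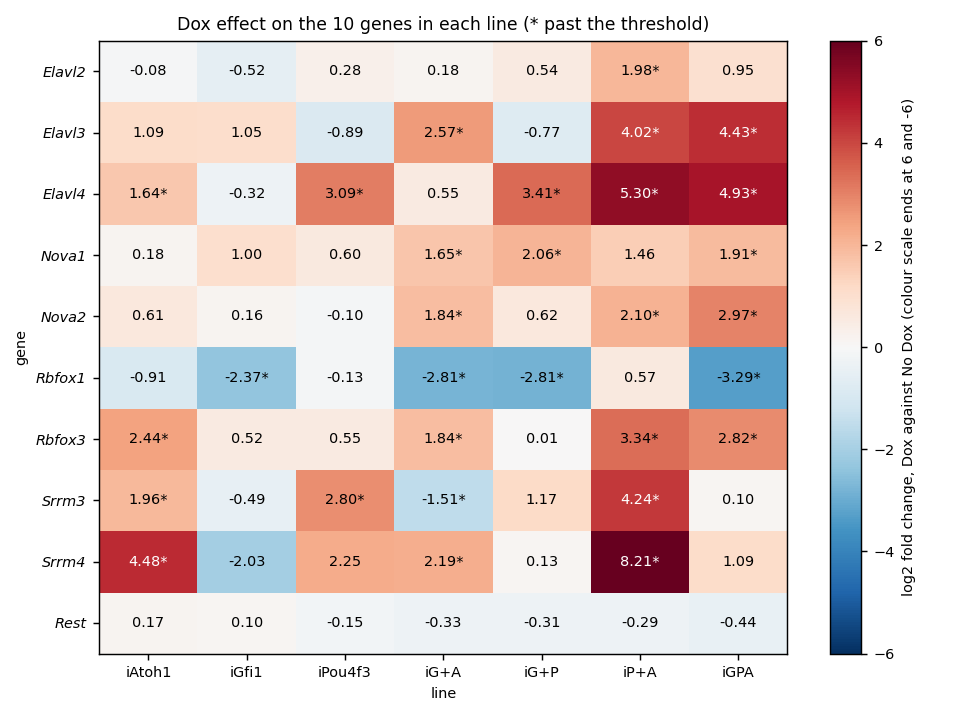
Log2 fold change of each of the 10 genes (rows) with Dox against No Dox in each line (columns), coloured from blue (lower with Dox) to red (higher) on a scale that ends at 6 and −6, with stars at values past the threshold. The column of iP+A holds 7 stars, the row of Rbfox1 holds the negative values of −2.37, −2.81, −2.81 and −3.29 in the 4 lines with Gfi1, and the row of Rest holds no star.

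Nova1, on chromosome 12 at 47795504 to 47919762 (minus strand), rose in iG+A, iG+P and iGPA cells, the 3 lines that join Gfi1 to another factor. In iG+P it had 1973 and 1882 normalized counts with Dox against 490 and 436 without, a 4.16-fold higher mean and a log2 fold change of 2.06 ± 0.16 (adjusted p 2.77e-08). In iGPA it had 1914 and 1570 against 458 and 463 (1.91, adjusted p 3.14e-08), and in iG+A 1773 and 1696 against 590 and 516 (1.65, adjusted p 3.17e-07). The other 8 Dox libraries lay between 458 and 912. In iP+A it had 880 and 787 against 251 and 363, and its log2 fold change of 1.46 (adjusted p 2.35e-06) lay just under the fold threshold and passed it without No Dox replicate 2 (1.72) or Dox replicate 2 (1.54) of iP+A. The values in iGfi1 were 912 and 712 against 380 and 427 (1.00, adjusted p 2.36e-04) and in iPou4f3 682 and 792 against 453 and 517 (0.60, adjusted p 0.0378). In iAtoh1 they were 518 and 458 against 438 and 422 (0.18, adjusted p 0.46). The Dox effect was higher in iGPA than in iAtoh1 by 1.73 ± 0.23 (adjusted p 3.06e-05, where 9.03% of all genes passed). The additions of Gfi1 to Atoh1 and to Pou4f3 gave differences of 1.47 and 1.46 with adjusted p of 2.52e-04 and 2.55e-04, just under the fold threshold.

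Nova2 (chromosome 7, 19510698 to 19551031, plus strand) rose in the 3 lines that join Atoh1 to another factor. It reached 1337 and 1517 normalized counts in iGPA cells against 170 and 193 without Dox, a 7.86-fold higher mean and a log2 fold change of 2.97 ± 0.26 (adjusted p 6.11e-08). In iP+A it had 936 and 794 against 136 and 295 (2.10, adjusted p 1.11e-05), and in iG+A 941 and 872 against 237 and 270 (1.84, adjusted p 2.48e-05). These 6 libraries lay at 794 and above, and the other 8 Dox libraries of Nova2 at 348 and below. In iAtoh1 alone Nova2 had 344 and 348 against 247 and 207 (0.61, adjusted p 0.104), and in iG+P 327 and 258 against 171 and 207 (0.62, adjusted p 0.0775). In iPou4f3 and iGfi1 the groups overlapped, with log2 fold changes of −0.10 and 0.16. Atoh1 added to Pou4f3 raised the effect on Nova2 by 2.20 ± 0.37 (adjusted p 0.00194), and added to Gfi1 and Pou4f3 by 2.35 (adjusted p 3.67e-04). The first of these calls was lost with only the groups compared in the fit (adjusted p 0.0728). Added to Gfi1 alone it gave 1.68 (adjusted p 0.00326), a call lost without iGfi1 Dox replicate 2 (1.37). The annotated gene Gm17370 overlaps Nova2 on the opposite strand.

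Rbfox1 was the only one of the 10 genes that fell in more than 1 line, and it did so in the 4 lines that carry Gfi1. It spans 603.3 kb of chromosome 16 (6809315 to 7412572, plus strand). In iGPA cells it had 39.8 and 40.1 normalized counts with Dox against 341 and 469 without, a 10.1-fold lower mean and a log2 fold change of −3.29 ± 0.56 (adjusted p 9.81e-05). In iG+A it had 68.4 and 58.0 against 578 and 347 (−2.81, adjusted p 5.84e-04), and in iG+P 76.4 and 48.7 against 411 and 462 (−2.81, adjusted p 6.53e-04). In iGfi1 it had 72.9 and 117 against 433 and 540 (−2.37, adjusted p 0.00427), a call lost without Dox replicate 1 (−2.04, adjusted p 0.0635). All 8 of these Dox libraries lay below the lowest of the 14 untreated ones, which spread from 130 to 782. In the lines without Gfi1 the groups overlapped: iPou4f3 had 504 and 398 against 659 and 363, iP+A 754 and 464 against 782 and 204, and iAtoh1 135 and 139 against 130 and 516. In iAtoh1 the log2 fold change was −0.91, and it was −1.90 and past the threshold without No Dox replicate 1. Between iGPA (−3.29) and iP+A (0.57) the Dox effects differed by −3.86 ± 0.79 (adjusted p 0.00229). Between iG+A and iAtoh1 the difference was −1.90 (adjusted p 0.115, or 0.0347 with the replicate block, where it passed the threshold). In that contrast 6.87% of all genes passed.

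Mesenchyme markers were also lower in lines where Rbfox1 fell, and in others. Of 7 such markers 6 fell in iGPA, 4 each in iG+A and iG+P, 2 each in iGfi1 and iAtoh1, 1 in iP+A and 0 in iPou4f3, where 0.606% (iPou4f3) to 5.36% (iG+P) of all tested genes fell per line. Their summed level was 8209 and 10816 normalized counts in iGPA with Dox against 71329 and 117250 without, 48071 and 40120 against 109520 and 77035 in iP+A, and 26680 and 39277 against 49845 and 78133 in iAtoh1. None of the 7 was at 0 in a group. Their part in the fall of Rbfox1 was not tested.

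Rbfox3 (NeuN), a common marker of mature neurons, lies on chromosome 11 at 118351074 to 118772911 (minus strand) and rose in the 4 lines with Atoh1. It had 1066 and 838 normalized counts in iP+A with Dox against 106 and 80.9, a log2 fold change of 3.34 ± 0.45 (adjusted p 2.51e-05). In iGPA it had 681 and 669 against 113 and 79.0 (2.82, adjusted p 5.58e-05), in iAtoh1 444 and 851 against 92.6 and 137 (2.44, adjusted p 8.03e-04), and in iG+A 190 and 193 against 56.1 and 49.9 (1.84, adjusted p 0.00332). Groups did not overlap in any of these 4 lines, but the call in iG+A was lost with all 14 untreated libraries as 1 control group (1.24). In the 3 lines without Atoh1 the log2 fold changes were 0.52, 0.55 and 0.01, with 50.4 to 189 normalized counts in their Dox libraries. Untreated iG+P replicate 1 had 283, the highest of the 14 No Dox libraries, and iG+P with Dox (138 and 189) lay between its 2 controls. Adding Atoh1 to Gfi1 and Pou4f3 raised the effect on Rbfox3 by 2.81 ± 0.64 (adjusted p 0.006). Adding it to Gfi1 alone gave 1.32, which did not pass (adjusted p 0.134), and adding it to Pou4f3 gave 2.79 (adjusted p 0.0197), a call lost without iP+A Dox replicate 1 (2.61), iP+A No Dox replicate 2 (2.59), iPou4f3 Dox replicate 1 (2.72) or 2 (2.85), or iPou4f3 No Dox replicate 2 (2.53). In the annotation 2 genes on the same strand and 1 on the opposite strand overlap Rbfox3, so its reads may not all be its own. Rbfox2, which most cells express, had 4189 to 12326 normalized counts in the Dox libraries. It passed the threshold in none of the 7 lines, with log2 fold changes of 0.57 and 0.60 in iAtoh1 and iP+A and −0.74 and −0.73 in iGfi1 and iG+P, all 4 under the fold threshold, with adjusted p of 6.18e-04, 3.21e-04, 6.45e-05 and 2.34e-05.

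As a ratio of highest to lowest over the Dox libraries, Srrm4 varied most of the 10 genes, from 2.82 to 2439 normalized counts, where the lowest value is too low for an exact fold. The gene (chromosome 5, 116889281 to 117041826, minus strand) had 2.35 to 90.1 normalized counts without Dox, near the limit of detection in several libraries. In iP+A cells with Dox it had 2439 and 1581 against 8.96 and 3.43, a log2 fold change of 8.21 ± 0.85 (adjusted p 1.11e-06). With so few counts without Dox its size depended on the processing, from 6.83 to 8.79 over the alternatives, and no ratio is given. With Atoh1 alone it had 621 and 401 against 43.9 and 10.2 (4.48, adjusted p 9.72e-04). In iG+A it had 160 and 102 against 7.67 and 90.1 (2.19, adjusted p 0.0461). That call was not stable: the pairing of libraries by replicate number moved it to an adjusted p of 0.052 and it was lost without No Dox replicate 1 (0.50), Dox replicate 1 (1.87) or Dox replicate 2 (2.52). In iGPA Srrm4 had 76.9 and 86.5 against 39.4 and 36.4 (1.09, adjusted p 0.316), groups that did not overlap. With all 14 untreated libraries as 1 control group this was 2.26 (adjusted p 0.0231) and past the threshold. In iPou4f3 it had 16.5 and 37.4 against 7.86 and 2.35 (2.25, adjusted p 0.153), in iGfi1 2.82 and 6.90 against 25.0 and 18.4 (−2.03, adjusted p 0.0865), and in iG+P 39.0 and 15.1 against 17.7 and 27.6 (0.13, adjusted p 0.924).

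Srrm3, on chromosome 5 at 136282760 to 136350642 (plus strand), rose in iP+A, iPou4f3 and iAtoh1 and fell in iG+A. In iP+A cells it had 3963 and 3051 normalized counts against 235 and 142, a log2 fold change of 4.24 ± 0.34 (adjusted p 4.95e-08) and an 18.6-fold higher mean. Per kb it was then the most abundant of the 10 genes, with 891.8 ± 164.0 normalized counts per kb of its longest transcript, beside 792.0 ± 246.8 for Elavl4. These 2 means differ by less than their spread, and over all annotated exons of the genes Elavl4 came first. In iPou4f3 Srrm3 had 784 and 881 against 119 and 117 (2.80, adjusted p 5.11e-05), and in iAtoh1 348 and 497 against 70.5 and 160 (1.96, adjusted p 4.95e-04), a call lost without No Dox replicate 1 (1.37) and with only the groups compared in the fit (adjusted p 0.0703). In iG+A it had 43.6 and 35.7 against 137 and 95.8 (−1.51, adjusted p 0.00184), just past the fold threshold and lost without No Dox replicate 1 (−1.26) or Dox replicate 2 (−1.37). In iGPA it had 199 and 150 against 172 and 150 (0.10, adjusted p 0.838), and in iG+P 352 and 262 against 119 and 152 (1.17, adjusted p 0.013). In iGfi1 it had 71.5 and 123 against 126 and 139, with a log2 fold change of −0.49.

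The Dox effects on both Srrm genes were lower in iGPA than in iP+A. Srrm4 moved from 8.21 in iP+A to 1.09 in iGPA, a difference of −7.12 ± 1.20 (adjusted p 5.00e-04), and Srrm3 from 4.24 to 0.10, a difference of −4.14 ± 0.49 (adjusted p 1.63e-05). From iAtoh1 to iG+A the effect on Srrm3 changed sign, from 1.96 to −1.51, a difference of −3.47 ± 0.49 (adjusted p 9.84e-05). For Srrm4 that difference was −2.29 ± 1.20 (adjusted p 0.219). Between iG+P and iPou4f3 the differences were −1.63 ± 0.49 for Srrm3 (adjusted p 0.0257), a call lost without iG+P Dox replicate 2 (−1.42), iG+P No Dox replicate 2 (−1.46) or any library of iPou4f3 (−1.55 to −1.72), and −2.12 ± 1.20 for Srrm4 (adjusted p 0.249). Pou4f3 added to Atoh1 raised the effect on Srrm3 by 2.29 ± 0.49 (adjusted p 0.00768), or 0.117 and not past the threshold with only the groups compared in the fit. Srrm1 and Srrm2, relatives found in most cells, had log2 fold changes between −0.10 and 0.19 in the 7 lines and passed the threshold in none.

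**Figure D4:**
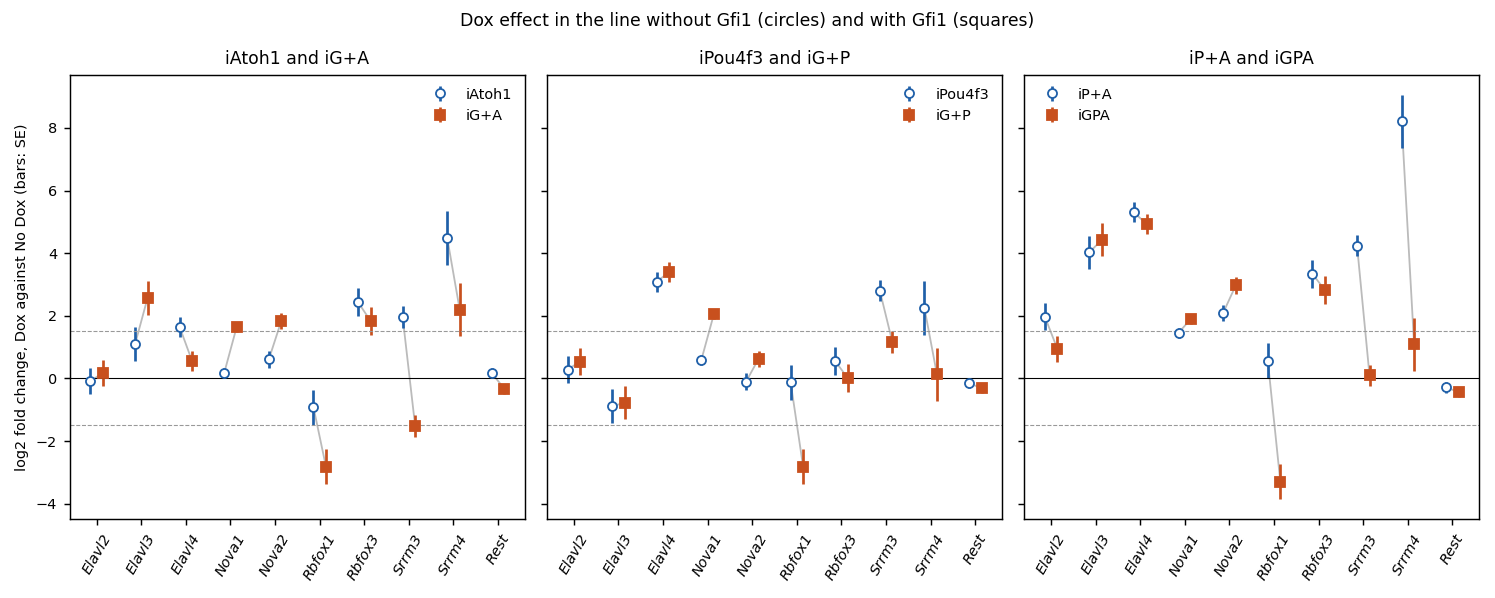
Log2 fold change with Dox (vertical axis, bars are SE) of the 10 genes in lines without Gfi1 (open circles) and in the lines that add Gfi1 (filled squares), for iAtoh1 and iG+A, iPou4f3 and iG+P, and iP+A and iGPA, with dashed lines at 1.5 and −1.5. Rbfox1, Srrm3 and Srrm4 differ by −3.86, −4.14 and −7.12 between iGPA and iP+A, while for Elavl3, Elavl4 and Rbfox3 the differences are 0.41, −0.37 and −0.51.

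From iP+A to iGPA the Dox effect was lower past the threshold for Rbfox1, Srrm3 and Srrm4, 3 of 10 genes against 7.60% of all tested genes, and 0 were higher past it. For the others the differences were −1.03 for Elavl2, 0.41 for Elavl3, −0.37 for Elavl4, 0.45 for Nova1, 0.87 for Nova2, −0.51 for Rbfox3 and −0.15 for Rest, with adjusted p from 0.113 to 0.759. In iG+A minus iGfi1, which adds Atoh1 to Gfi1, 2 of 10 effects were higher (Nova2 and Srrm4, both lost without single libraries that leave 1.37 and 2.53, all genes 8.54%). In the 10 contrasts together, 28 of 100 differences passed, 20 higher and 8 lower, where 1.61% to 9.03% of all tested genes passed per contrast, and contrasts that share a line are not independent.

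The sum of neuron markers was higher with Dox in iP+A, iGPA, iPou4f3, iAtoh1 and iG+P. The summed level of the 11 markers was 30101 and 25099 normalized counts in iP+A with Dox against 5726 and 5104 without, 10076 and 9722 against 3664 and 4658 in iGPA, 9752 and 7670 against 5209 and 3960 in iPou4f3, where 2 of the 10 genes rose, and 7681 and 5737 against 3790 and 3690 in iAtoh1, and none of the 11 was at 0 in a group. Past the threshold, 4 of these markers rose and 1 fell in iAtoh1, 1 rose in iPou4f3, and 1 rose and 1 fell in iG+P. The sum in iGfi1 was 2955 and 3008 against 5588 and 4339, with 0 markers up and 1 down. In iG+A it was 4030 and 3636 against 5711 and 4102, with 3 markers up and 2 down. In that line 5 of the 10 genes rose and 2 fell, beside 7.35% and 4.95% of all genes. Over 6 neural progenitor markers the sum was 3449 and 4214 with Dox against 1231 and 2117 without in iG+A and 2634 and 2649 against 1622 and 867 in iGPA, but 814 and 1313 against 1533 and 5357 in iP+A. Single markers did not all follow these sums. In iP+A Fabp7 rose and Sox2 fell, and the median log2 fold change of the list was 0.74. In iG+A 3 rose and Sox2 fell, and in iGPA 2 rose and 0 fell. Over 6 glia markers, of which 4 were tested and 1 each rose in iAtoh1, iGfi1, iG+A, iG+P and iGPA, the sum was 1059 and 1048 against 210 and 251 in iG+A, 689 and 854 against 300 and 292 in iGPA and 566 and 584 against 352 and 261 in iAtoh1. Blood markers were lower in the 4 lines with Atoh1, where Rbfox3 rose: of 7, 5 each fell in iAtoh1, iG+A and iP+A and 4 in iGPA, against 1 in iG+P and 0 in iGfi1 and iPou4f3. Their sum with Dox was 12062 to 46763 in the 4 lines with Atoh1, against 102520 to 482610 in the same lines without Dox. The sum was also lower in iPou4f3, at 259170 and 244410 against 482040 and 372980. In iG+P (31961 and 81806 against 65745 and 135440) and in iGfi1 (362670 and 194620 against 251000 and 174500) the groups overlapped. HC markers rose in iGPA (5 of 8), iG+A and iG+P (4 each), iP+A and iPou4f3 (2 each), iGfi1 (1) and iAtoh1 (0). Their summed level was 14757 to 77707 over all libraries. It was higher with Dox, without overlap, in iG+P (68117 and 77707 against 56787 and 29609) and iPou4f3 (52133 and 51240 against 31428 and 44225). In each of the other lines the Dox and No Dox sums overlapped. Of 7 pluripotent cell markers 4 fell in iP+A, 3 each in iG+A and iGPA and 1 in iG+P. Of 5 endoderm markers 1 to 3 fell in each line. Of 5 endothelium markers 2 each fell in iAtoh1 and iG+P and 1 each in iP+A and iGPA. Of 7 dissociation stress genes 2 fell in iG+A, and 0 genes of these lists rose. Among all tested genes 1.47% to 8.65% rose and 0.606% to 5.36% fell per line. The part of dissociation stress and of the share of any of these cell types, neurons and HCs included, in these values was not tested.

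Other regulators of splicing were listed too. Of 10 further neuronal ones, 2 rose in iP+A, 1 each in iPou4f3, iG+P and iGPA, and 1 fell in iG+A. Among all tested genes 4.70% rose in iP+A, 1.47% in iPou4f3, 5.16% in iG+P and 8.65% in iGPA, and 4.95% fell in iG+A. Celf4, which binds mRNAs of synaptic proteins, had 1229 and 1104 normalized counts in iGPA against 252 and 322 (2.03, adjusted p 1.31e-05). Ptbp2, the neuronal form of the polypyrimidine tract protein, had 4572 to 7574 in the Dox libraries and log2 fold changes between −0.25 and 0.44. Ptbp1, its counterpart in other cells and a repressor of neuronal exons, had log2 fold changes between −0.22 and 0.17 at 17006 to 24486 normalized counts. Of 16 broadly expressed or epithelial RNA-binding proteins, 1 rose and 1 fell in iGPA, where Rbm24, a splicing regulator of muscle and HCs, had 3948 and 3387 against 357 and 232 (3.66, adjusted p 2.48e-07) and Mbnl1 858 and 1190 against 3538 and 5760 (−2.16, adjusted p 3.53e-06). Rbm24 also rose in iP+A, iAtoh1 and iG+A, by 4.54, 3.64 and 2.46 on the log2 scale. In iAtoh1 1 rose and 2 fell, in iG+A and iP+A 1 rose, and in iGfi1 and iG+P 1 fell. Among all tested genes 8.65% rose and 5.31% fell in iGPA, and 2.89% rose and 2.52% fell in iAtoh1. The share that rose was 7.35% in iG+A and 4.70% in iP+A, and the share that fell was 2.67% in iGfi1 and 5.36% in iG+P.

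The genes whose levels were most like those of each of the 10, by Pearson's r of log2 group means over the 14 groups, are given as a description, since all groups share the same libraries and normalization. For Nova2 they were Lhx3 (0.979), 5330434G04Rik and Neurod1, and for Elavl4 Eya4 (0.976), Rtn4rl1 and Myt1. Elavl3 was most like Stmn4 (0.959), Scg3 and Stmn3, Elavl2 like Epb41l3 (0.938) and Itpr3, and Nova1 like Bcl2l2 (0.972), Kmt2c and Tspan13. For Rbfox1 the closest were Nrp1 (0.981), Epb41l1 and Flna, and for Rbfox3 Rnf44 (0.964), Ppp1r17 and Chrna3. Srrm3 was closest to Plcxd2 (0.964), Phf21b and Arhgap33, Srrm4 to 4931428F04Rik (0.92), Brd9 and Rnf112, and Rest to Xrra1 (0.919), Tor3a and Slamf6. Lhx3, a transcription factor of HCs and motor neurons, is on the list of HC markers.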

How the data were processed

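The 28 libraries form 14 groups of 2. The authors trimmed reads with cutadapt, quantified knownGene transcripts (mm9) with Kallisto, used tximport for gene totals and DESeq2 for scaling (versions not given in the sources used here). The deposited values are log2(normalized count + 1) and were turned back into normalized counts for levels. Only 71.3% to 79.4% of small normalized counts (20 or less) were within 0.05 of a whole number of reads, so reads were not recovered and no count test was run. RefSeq named 19314 of 19421 genes.

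The 16837 genes that reached 10 normalized counts in 2 or more libraries entered 1 limma 3.58.1 model of the 14 groups (R 4.3.3, variance trend on mean level). It had 14 residual degrees of freedom, p-values were adjusted by Benjamini-Hochberg per contrast, and the method was tested on simulated data. The main fit did not pair libraries, and the replicate block was run as an alternative and is given where it changed a call. Deviations of same-numbered Dox and No Dox libraries correlated by 0.238, 0.127, 0.231, 0.158, 0.103, 0.246 and 0.152 in iAtoh1, iGfi1, iPou4f3, iG+A, iG+P, iP+A and iGPA. Whether equal numbers mean the same clone is not stated.

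Alternatives were other pseudocounts (0.5, 5), filters (none, 50), quantile normalization, the replicate block, fits of only the groups compared, 1 common control of all 14 untreated libraries, no variance trend, a log2 threshold of 1 and leaving out each library. Named genes are the 10, their broad relatives, the 3 largest changes of each list in iGPA and the 3 genes most like each of the 10, some of which are not reported here. Genes and lists were chosen with earlier results of these data known. Positions, transcripts and RE1 matches are from GENCODE M1 on NCBIM37, promoters from RefSeq on GRCm38.p6.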

Additional observations from a re-analysis of the deposited data

Results flagged for a closer look

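Of 100 differences between lines in the Dox effect (10 genes, 10 contrasts), 28 passed the test of the difference itself, where 1.61% to 9.03% of all tested genes passed per contrast. Values are differences of log2 fold changes. For 17 of them no single library decided the call, although 2 of these, Srrm3 in iP+A minus iAtoh1 and Nova2 in iP+A minus iPou4f3, were lost with only the groups compared in the fit (adjusted p 0.117 and 0.0728). These were Srrm4 −7.12, Srrm3 −4.14 and Rbfox1 −3.86 for iGPA minus iP+A. For iG+A minus iAtoh1 there was Srrm3 −3.47. For iP+A minus iAtoh1 they were Elavl4 3.66 and Srrm3 2.29, and for iP+A minus iPou4f3 Elavl3 4.91 and Nova2 2.20. Elavl4 had 3.72 for iG+P minus iGfi1 and 4.38 for iGPA minus iG+A. For iGPA minus iG+P they were Elavl3 5.21, Rbfox3 2.81 and Nova2 2.35, and for iGPA minus iAtoh1 Elavl3 3.34, Elavl4 3.29, Nova2 2.36 and Nova1 1.73.

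The other 11 lost the call without some library. For iP+A minus iPou4f3, Elavl4 (2.22) was lost without iP+A Dox replicate 1 (1.89). Srrm4 (5.96) was lost without iP+A Dox replicate 1 (5.65) or iPou4f3 No Dox replicate 1 (5.26). Rbfox3 (2.79) was lost without iP+A Dox replicate 1 (2.61), iP+A No Dox replicate 2 (2.59), iPou4f3 Dox replicate 1 (2.72) or 2 (2.85), or iPou4f3 No Dox replicate 2 (2.53). For iG+A minus iGfi1, Nova2 (1.68) was lost without iGfi1 Dox replicate 2 (1.37), and Srrm4 (4.22) without iG+A No Dox replicate 1 (2.53), iGfi1 Dox replicate 1 (3.70) or iGfi1 No Dox replicate 1 (4.01).

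Elavl3 in iP+A minus iAtoh1 (2.93) was lost without iAtoh1 Dox replicate 2 (2.05), either No Dox replicate of iAtoh1 (2.85 and 3.01), iP+A Dox replicate 1 (2.60) or either No Dox replicate of iP+A (2.85 and 3.01). Elavl4 in iGPA minus iG+P (1.52) was lost without iG+P Dox replicate 1 (1.19), iG+P No Dox replicate 2 (1.33), either Dox replicate of iGPA (1.43 and 1.62) or iGPA No Dox replicate 2 (1.46). In iG+P minus iPou4f3, Rbfox1 (−2.69) was lost without iG+P Dox replicate 2 (−2.37), either No Dox replicate of iG+P (−2.77 and −2.61), iPou4f3 Dox replicate 1 (−2.52) or iPou4f3 No Dox replicate 2 (−2.26). Srrm3 in that contrast (−1.63) was lost without iG+P Dox replicate 2 (−1.42), iG+P No Dox replicate 2 (−1.46) or any library of iPou4f3 (−1.55 to −1.72).

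In iGPA minus iAtoh1, Srrm3 (−1.86) was lost without iAtoh1 Dox replicate 2 (−1.60), iAtoh1 No Dox replicate 1 (−1.27) or iGPA Dox replicate 2 (−1.66). Rbfox1 there (−2.38) was lost without any of the 4 libraries of iGPA (−2.15 to −2.61), either Dox replicate of iAtoh1 (−2.40 and −2.36) or iAtoh1 No Dox replicate 1 (−1.39). With 2 libraries per group, leaving one out gives its group a single library, which the fit takes to vary like the other groups.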

How the results depend on the processing

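No called result changed sign in the alternatives run. Among the counts of genes past the threshold per line, 3 values moved by over 1.5 times. With only the groups compared in the fit, the count was 2 in iAtoh1 in place of 4, where the calls of Elavl4 and Srrm3 were lost, and 2 in iGfi1 in place of 1, where Srrm4 was added. That fit also lost Elavl2 in iP+A, Srrm4 in iG+A and 6 differences between lines: Elavl3 and Srrm3 in iP+A minus iAtoh1, Nova2 in iP+A minus iPou4f3, Rbfox1 and Srrm3 in iGPA minus iAtoh1, and Srrm4 in iG+A minus iGfi1, and it added Srrm4 in iGPA minus iAtoh1. Leaving out single libraries gave 0 to 1 in iGfi1, with 0 without iGfi1 Dox replicate 1. Of the 30 calls per line, 24 kept their side without any 1 library, and the 6 others are named in the report.

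With the replicate block, the counts were 4, 1, 2, 6, 3, 7 and 6 in iAtoh1, iGfi1, iPou4f3, iG+A, iG+P, iP+A and iGPA, the call of Srrm4 in iG+A was lost, and 32 differences between lines passed in place of 28. The 4 added by the block were Elavl2 in iP+A minus iAtoh1 (adjusted p 0.0238), Rbfox1 in iG+A minus iAtoh1 (0.0347), and Srrm3 in iG+P minus iGfi1 (0.0141) and in iGPA minus iG+A (0.0139). It changed no other call of the 10 genes. With all 14 untreated libraries as 1 control group, Rbfox3 in iG+A lost its call (1.24), while Elavl3 and Rbfox1 in iAtoh1 and Srrm4 in iGPA (2.26) passed. Srrm3 in iG+A lost its call with a pseudocount of 5 (−1.43), and Srrm4 in iG+A also with a pseudocount of 0.5, no filter, quantile normalization, no variance trend or only the groups compared (adjusted p 0.0501 to 0.0679 for the first 4). Of the differences between lines, Elavl4 in iGPA minus iG+P was also lost with a pseudocount of 5 (1.49) or quantile normalization (1.45), Nova2 in iG+A minus iGfi1 with quantile normalization (1.46), and Rbfox1 in iGPA minus iAtoh1 without the variance trend (adjusted p 0.0584). Quantile normalization shifted the median of all genes by −0.11 in iGPA, and by less than 0.05 in the other lines. The precision is limited by 2 libraries per group, with a median SE of 0.18 for a Dox contrast, and for Srrm4 by its low counts.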
